A study of Mus musculus with 12 samples.

Results

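The genes described here were 36 regulators of chromatin and transcription that are mutated in human neurodevelopmental disorders, as MYT1L is. They were taken by gene symbol, not by a measured value, from a list drawn up with earlier results of these data known. All 36 were found among the 55335 genes of the deposited matrices. The list was ordered by role. It held 4 CHD remodellers (Chd2, Chd3, Chd7, Chd8), the zinc finger proteins Adnp and Pogz, 5 subunits of the BAF remodelling complex (Arid1a, Arid1b, Smarca2, Smarca4, Smarcc2) and 6 genes grouped under H3K4 methylation (Setd1a, Kmt2a, Kmt2c, Kmt2d, Kmt2e, Setd5). A further 6 act on other histone methyl marks (Kmt5b, Ash1l, Nsd1, Ehmt1, Ezh2, Kdm6b). The remaining genes were the DNA methyltransferase Dnmt3a and its group partner Mbd5, 4 genes grouped as corepressors (Tbl1xr1, Hdac4, Ankrd11, Phf21a), the architectural factor Ctcf, the relatives Tcf20 and Rai1, the group of Asxl3, Auts2 and Setbp1, and the bHLH factor Tcf4.

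Single nuclei were profiled from the forebrain of mice of the C57BL/6-Myt1l em1Jdd/J line (MYT1L S710fsX), kept by breeding to C57BL/6J, at postnatal day 1, in 12 libraries of 1 animal each. The 8 wild-type (WT) libraries carried 2 intact Myt1l alleles and came from 5 males and 3 females, and the 4 heterozygous (Het) libraries carried 1 frameshift Myt1l allele in every cell of the body and came from 3 males and 1 female. The animals came from 4 litters, and no source used here ties an animal to its litter. The labels call the tissue forebrain while the methods of the study once name prefrontal cortex, and the nuclei held a striatal class.

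Chromatin regulators of this kind fall into enzymes that slide or evict nucleosomes, enzymes that write or erase methyl marks on histones and DNA, and proteins that bring these enzymes to their sites. Most are present in nearly every cell, and loss of a single copy of many of them leads to intellectual disability or autism in people. MYT1L itself is a zinc finger transcription factor of neurons, and its loss of 1 copy causes a syndrome of the same family.

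After the filters on nuclei, 100035 of 126684 barcodes were kept, 58357 WT and 41678 Het, with 10784786 to 26630745 UMIs (unique molecular identifiers, each standing for 1 captured RNA molecule) per library and a median of 1770 to 2155 UMIs per nucleus. No barcode was shared between libraries. Sex-linked transcripts matched the labelled sex in all 12 libraries. The Het allele is a frameshift, so the Myt1l level does not check the genotype labels, and its log2 difference in excitatory nuclei was 0.18 with an SE of 0.06 and an adjusted p of 0.27 by edgeR's quasi-likelihood test. Nuclei were sorted into classes (gates) by counts of marker genes that included none of the 36 genes. The largest were excitatory (42152 nuclei), inhibitory (12328) and astroglia (9877), and the smallest was microglia (283). Of the excitatory nuclei, 31.1% lay between the upper-layer and deep-layer limits and 12.8% had the minimum of marker UMIs, against 33.7% at the minimum among inhibitory nuclei. Among check markers that were not used in the gates, several were as high or higher in a gate other than their own. These included Slc17a6, Nrn1, Thsd7b and Calb2 (highest in Cajal-Retzius nuclei), Lmo3 and Syt6 of the deep-layer list (highest in striatal nuclei) and, of the striatal list, Ikzf1 (highest in microglia) and Ptpn5 (136 CPM against 139 CPM in MGE interneurons and 141 CPM in deep-layer nuclei). Vcan was little higher in the oligodendrocyte lineage gate than in astroglia (618 against 490 CPM), and the interneuron marker Erbb4 was also high in that gate. The neuronal gene Myt1l stood at 1797 counts per 1000000 UMIs (CPM) in excitatory nuclei and at 275 CPM in endothelial nuclei, which should lack it, and the part of free RNA in the levels below was not tested. Levels below are CPM of counts summed per library and gate, and in such sums fewer cells of a kind and less RNA per cell cannot be told apart. Of the 36 genes, 29 overlap another annotated gene on either strand, and no source used here says if the counting was strand-specific. Reads of overlapping genes then cannot be told apart.

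Across 12 gates that do not share nuclei, the 36 genes differed widely in how even they were. The ratio of the highest to the lowest gate mean had a median of 2.30 over the 36 genes. It ran from 1.32 for Mbd5, a protein of the methyl-CpG-binding family, to 47.3 for Chd7, an ATP-dependent remodeller. For 13 genes the ratio stayed under 2, and for 7 it was over 4, namely Chd7, Tcf4 (11.8), Setbp1 (5.97), Asxl3 (5.62), Auts2 (5.30), Ezh2 (5.23) and Smarca2 (4.31). The gate with the highest mean was cycling for 7 genes, endothelial for 7 and microglia for 5, and in many of these the leading gates overlapped between libraries. Chd2, for example, averaged 445 CPM in microglia and 431 CPM in mural and fibroblast nuclei, and microglia was the higher of these in 5 of 11 libraries. These ratios and ranks use CPM scaled to total counts alone, with no share over all genes beside them. On that scale the median of all genes was also lower in excitatory than in astroglia nuclei (log2 difference -0.43). The ratios and ranks are therefore not shown to be particular to the 36 genes. Levels of different genes are set side by side here per length and undivided, and their order depended on the length used. Per kilobase of gene span in excitatory nuclei, the highest were Smarcc2 at 6.87 CPM, Tcf4 at 6.53 and Chd3 at 6.52, and the lowest were Hdac4 at 0.364 and Chd7 at 0.0888. Per kilobase of exon the order changed, with Auts2 at 166 CPM, Setbp1 at 116 and Tcf4 at 82.4 leading. Undivided by length, Auts2 at 3794 CPM, Tcf4 at 2256 and Setbp1 at 1151 led. Whether these UMI counts scale with gene length was not tested. Auts2 spans 1106 kb and holds 22 other genes on its own strand.

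**Figure D1:**
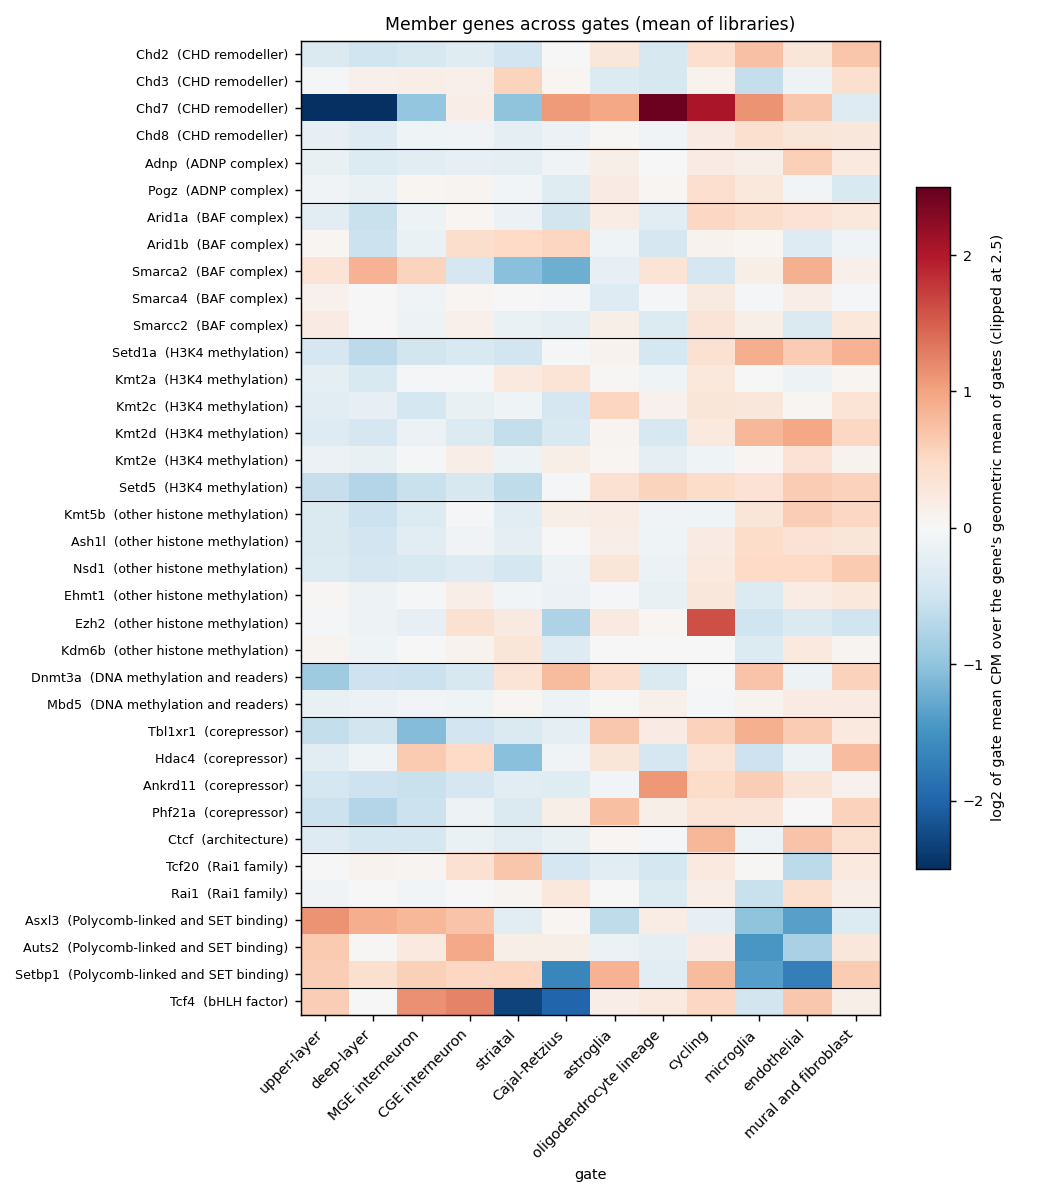
Level of each of the 36 genes (rows, ordered by role) in 12 gates (columns), as the log2 of the mean CPM over libraries relative to that gene's mean over gates. Chd7 ranged 47.3-fold between gates and Mbd5 1.32-fold, and the median ratio over the 36 rows was 2.30.

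Among the CHD remodellers, Chd7, the gene mutated in CHARGE syndrome, had the steepest pattern. In excitatory nuclei its lowest, median and highest library stood at 11.7, 15.8 and 21.3 CPM, and in astroglia at 207, 246 and 286 CPM. In oligodendrocyte lineage nuclei they stood at 513, 726 and 790 CPM, and in cycling nuclei at 393, 527 and 645 CPM. Every library of these 3 gates was thus far above every excitatory library. Inhibitory nuclei were intermediate at 61.0, 88.4 and 117 CPM, and within them the CGE-derived interneurons averaged 143 ± 29.5 CPM (SD, n = 12) and the MGE-derived interneurons 65.2 ± 23.0 CPM. Its paralogue Chd8, a remodeller tied to autism, ranged only 1.64-fold over the same gates.

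**Figure D2:**
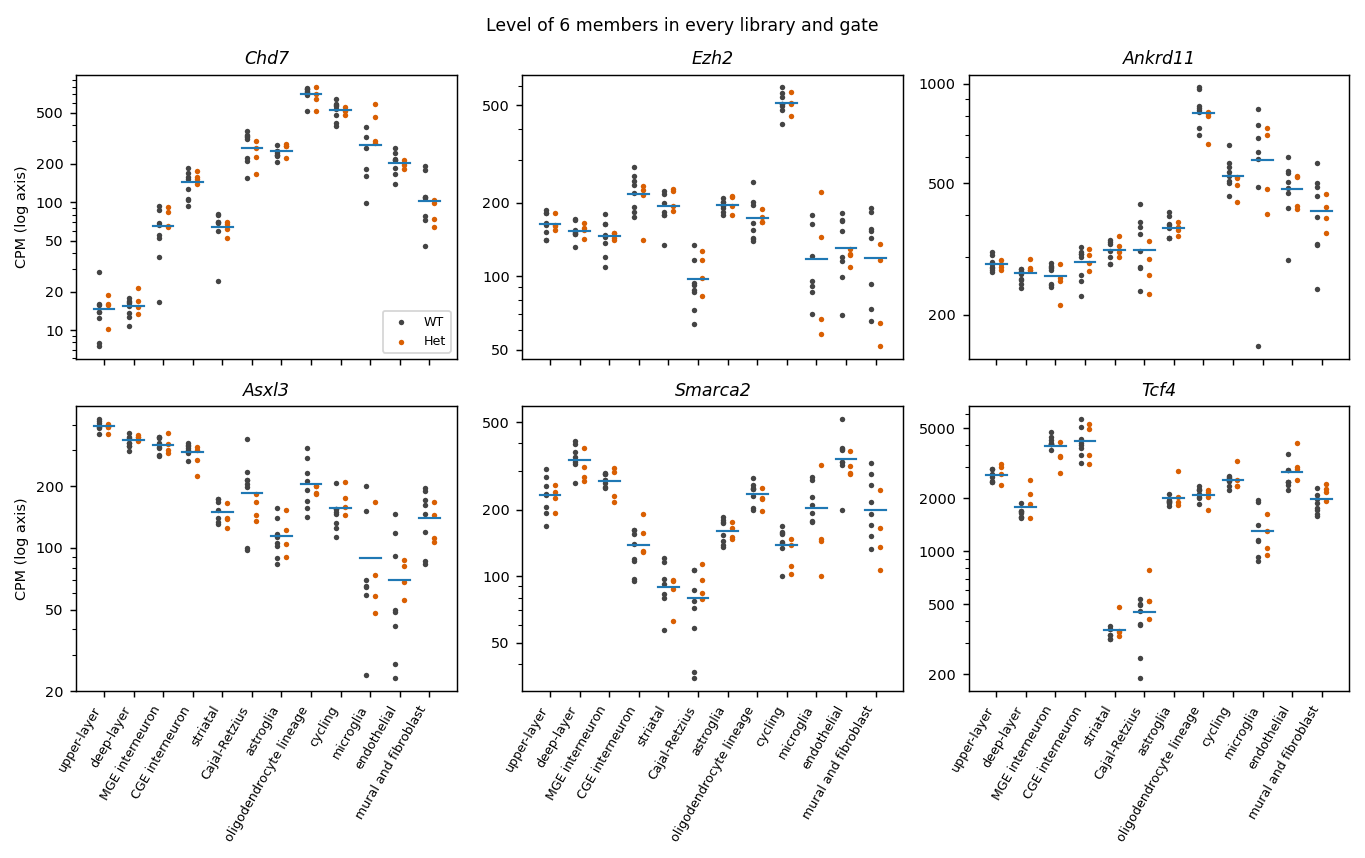
CPM per library (log axis) of 6 of the genes in each gate, with WT libraries in dark grey, Het libraries in orange and the mean as a blue line. Chd7 sits near 14.7 CPM in upper-layer nuclei and near 696 CPM in the oligodendrocyte lineage, and Tcf4 falls to 356 CPM in striatal nuclei. The 1 microglia library without a Chd7 UMI (WT 4) cannot be drawn on a log axis.

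The first comparison between gates set neurons against glia. Of the 36 genes, 13 were called higher in excitatory than in astroglia nuclei and 9 lower, where a call is an adjusted p under 0.05 and a log2 difference of at least 0.2 in edgeR's quasi-likelihood test with the library as a block. Over all 16519 genes tested, 34.4% were called higher and 35.3% lower, and in either direction 61.1% of the 36 and 69.7% of all genes were called. The median log2 difference was 0.05 over the 36 genes and -0.0076 over all genes. Here the scaling mattered. With total-count scaling, which leaves out the TMM composition factors, the median of all genes moved by -0.42 to -0.43, the share of all calls that were higher moved from 49.4% to 25.3%, and the counts became 6 higher and 23 lower. Under both scalings 15 genes kept their call. The 6 higher were Chd3, Smarca2, Smarca4, Tcf20, Asxl3 and Auts2, and the 9 lower were Chd2, Chd7, Kmt2c, Setd5, Kmt5b, Nsd1, Dnmt3a, Tbl1xr1 and Phf21a. For Arid1b, Smarcc2, Ehmt1, Kdm6b, Mbd5 and Rai1 the sign depended on the scaling.

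The largest of these differences was that of Chd7, with the library values given above, which was 11.9-fold lower in excitatory nuclei by the TMM-scaled fit (log2 difference -3.58, SE 0.09, adjusted p = 1.1e-18 by edgeR). Here and below, CPM values and statements on overlap carry no TMM factors, while folds and log2 differences do. Ratios of the printed CPM therefore differ from the folds. Asxl3, a partner of the Polycomb deubiquitinase, stood at 348, 378 and 410 CPM (lowest, median, highest library) in excitatory nuclei and at 83.7, 109 and 156 CPM in astroglia. No library overlapped, and the log2 difference was 2.17 with an SE of 0.08 (edgeR, adjusted p = 8.5e-16). Smarca2, an ATPase of the BAF complex, stood at 229, 285 and 373 CPM against 136, 160 and 185 CPM in astroglia, also without overlap (log2 difference 1.26, SE 0.05). Auts2, which is found in a Polycomb complex of neurons, stood at 3280, 3839 and 4137 CPM against 2316, 2567 and 3151 CPM (log2 difference 0.97, SE 0.05). Astroglia led for 2 corepressors. Phf21a, which reads unmodified H3K4, stood at 214, 244 and 271 CPM in excitatory nuclei and at 547, 629 and 753 CPM in astroglia (log2 difference -0.96, SE 0.05). Tbl1xr1, a subunit of the nuclear receptor corepressor, stood at 99.7, 115 and 124 CPM against 204, 274 and 291 CPM (log2 difference -0.82, SE 0.06). Of the 5 BAF subunits 4 were called higher and none lower, against the 34.4% and 35.3% of all genes, but Arid1b and Smarcc2 were among the genes whose sign turned with total-count scaling. Of 18 other genes of the BAF complex, 7 were called higher and 5 lower, with a median log2 difference of 0.07.

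**Figure D3:**
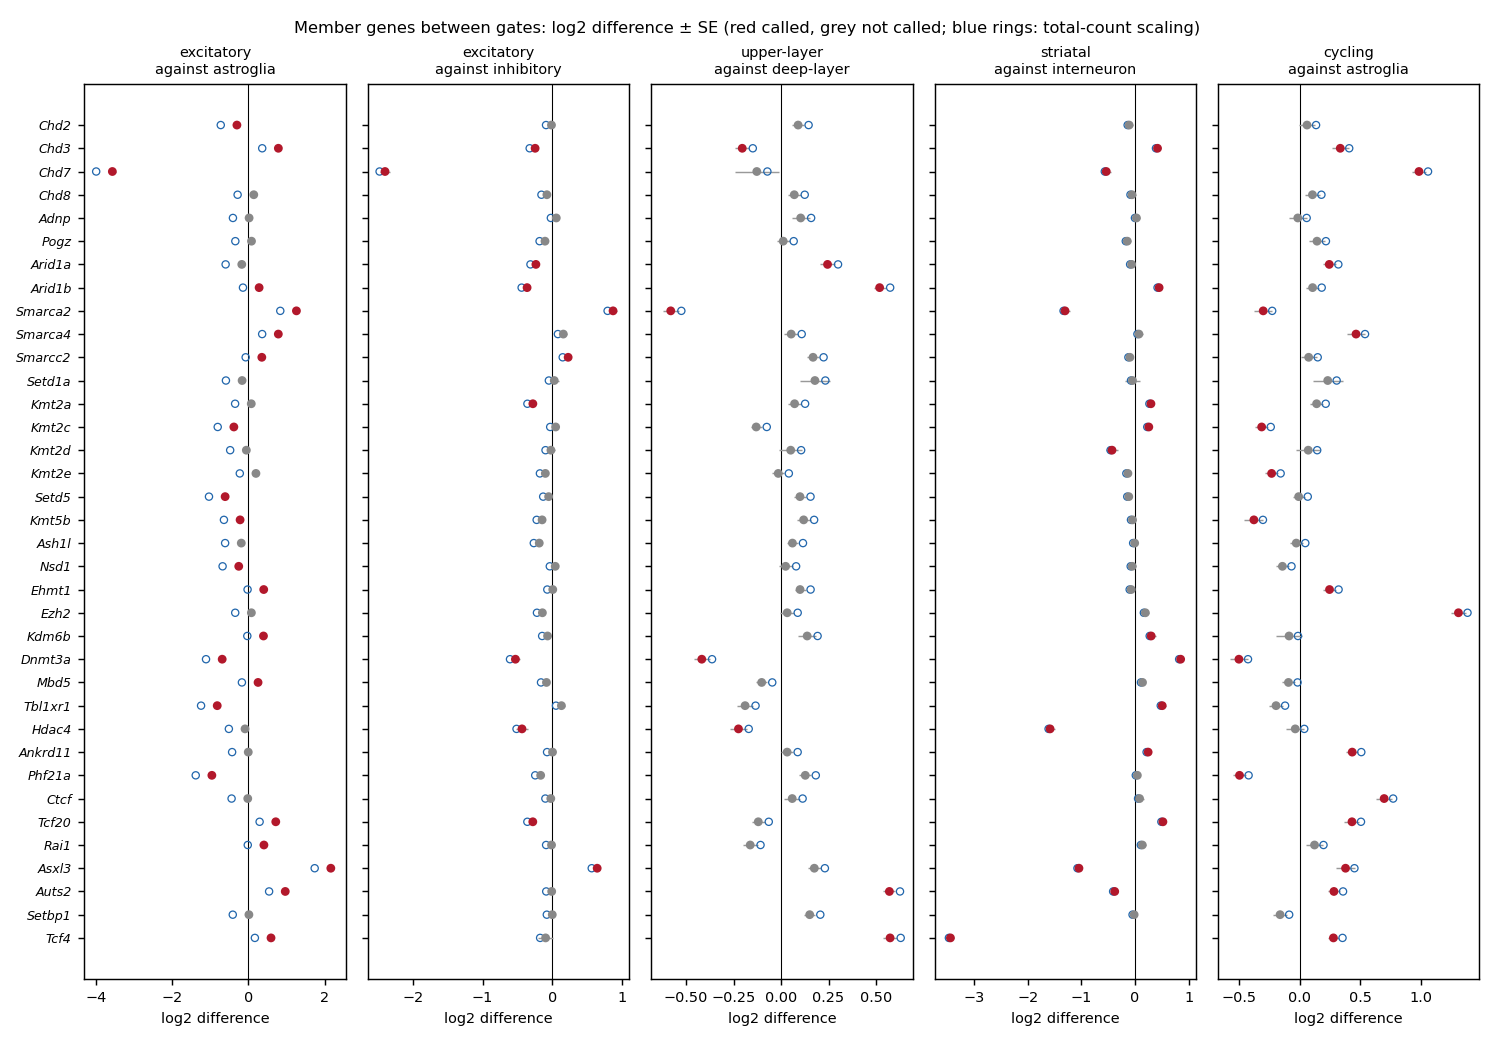
Log2 difference of each of the 36 genes between the gates of 5 comparisons, with SE bars, called genes in red, other genes in grey and total-count scaling as blue rings. The blue rings sit to the left of the points in excitatory against astroglia, where the median of all genes moved by -0.42, and lie close to the points in striatal against interneuron.

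Between the main neuron gates, 3 of the 36 genes were called higher in excitatory than in inhibitory nuclei and 8 lower, against 20.2% and 20.8% of all 15805 genes. Total-count scaling gave 2 and 12, moved the share of all calls that were higher from 49.3% to 37.7%, and 10 calls were shared. Chd7 was again the largest, at 11.7 to 21.3 CPM against 61.0 to 117 CPM (log2 difference -2.40, SE 0.07, edgeR adjusted p = 2.6e-16). Smarca2 was higher in excitatory nuclei, with 138, 173 and 191 CPM in the lowest, median and highest inhibitory library (log2 difference 0.87, SE 0.06), and so was Asxl3, with 230, 251 and 301 CPM in inhibitory nuclei (log2 difference 0.64, SE 0.04). Neither overlapped. On the inhibitory side, Dnmt3a, which lays down new DNA methylation, stood at 82.4, 107 and 133 CPM in excitatory and at 142, 161 and 191 CPM in inhibitory nuclei (log2 difference -0.53, SE 0.07). Arid1b, a targeting subunit of the BAF complex, stood at 295, 353 and 411 CPM against 437, 457 and 566 CPM (log2 difference -0.36, SE 0.04). The deacetylase Hdac4 stood at 86.5, 95.05 and 117 CPM against 98.6, 140 and 193 CPM, and its libraries overlapped (log2 difference -0.43, SE 0.08). Within the inhibitory gate Hdac4 also differed strongly between subclasses, as given below.

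Within excitatory nuclei, 4 genes were called higher in the upper-layer gate and 4 lower, against 14.0% and 16.6% of all 13746 genes. With total-count scaling these counts were 8 and 2, and the share of all calls that were higher moved from 45.7% to 58.9%. The calls of Arid1a, Arid1b, Auts2, Tcf4, Smarca2 and Dnmt3a held under both. Auts2 stood at 4116, 4502 and 5095 CPM in upper-layer and at 2506, 2921 and 3235 CPM in deep-layer nuclei, without overlap (log2 difference 0.57, SE 0.03, edgeR adjusted p = 1.2e-13). Arid1b stood at 363, 432 and 481 CPM against 259, 293 and 314 CPM, also without overlap (log2 difference 0.52, SE 0.03). Tcf4, a bHLH partner of proneural factors and the Pitt-Hopkins gene, stood at 2383, 2736 and 3118 CPM against 1542, 1677 and 2557 CPM. Its libraries overlapped, yet the upper-layer value was the higher one in 12 of 12 libraries (log2 difference 0.57, SE 0.04). Arid1a, the paralogue of Arid1b, moved the same way by less, at 130, 161 and 174 CPM against 120, 125 and 148 CPM (log2 difference 0.24, SE 0.04). Smarca2 went the other way in all 12 libraries, at 168, 235 and 306 CPM against 265, 334 and 412 CPM (log2 difference -0.58, SE 0.04), as did Dnmt3a at 73.7, 93.5 and 119 CPM against 92.0, 122 and 155 CPM (log2 difference -0.42, SE 0.04).

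Among inhibitory nuclei the striatal gate was set against MGE and CGE interneurons together, in the 11 libraries with at least 10 striatal nuclei (WT 4 had 5). Of the 36 genes, 9 were called higher in striatal nuclei and 7 lower, against 18.4% and 19.5% of all 10372 genes, and all 16 calls held with total-count scaling. Tcf4 had the largest difference. It stood at 316, 347 and 482 CPM in striatal nuclei and at 2995, 4016 and 4661 CPM in interneurons, 10.9-fold apart with no overlap (log2 difference -3.45, SE 0.08, edgeR adjusted p = 1.7e-24). Hdac4 stood at 40.4, 54.0 and 64.6 CPM against 131, 166 and 232 CPM (log2 difference -1.59, SE 0.09). Smarca2 stood at 56.8, 91.8 and 121 CPM against 193, 224 and 267 CPM (log2 difference -1.31, SE 0.09). Asxl3 stood at 125, 141 and 174 CPM against 277, 314 and 345 CPM (log2 difference -1.05, SE 0.06). In these 3 genes too no striatal library reached an interneuron library. Dnmt3a ran the opposite way without overlap, at 173, 217 and 282 CPM in striatal nuclei against 99.6, 125 and 145 CPM (log2 difference 0.85, SE 0.06). Chd7 was lower in striatal nuclei in 10 of 11 libraries, at 24.1, 69.3 and 80.5 CPM against 77.0, 93.3 and 124 CPM, and its libraries overlapped (log2 difference -0.54, SE 0.10).

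The cycling gate, which takes dividing nuclei of any class, was set against astroglia. Of the 36 genes, 12 were called higher in cycling nuclei and 6 lower, against 22.0% and 23.2% of all 11028 genes. Total-count scaling gave 15 and 5, moved the share of all calls that were higher from 48.7% to 58.3%, and kept 17 of the 18 calls. Ezh2, the catalytic subunit of Polycomb repressive complex and the writer of H3K27 methylation, had the largest difference. It stood at 420, 507 and 592 CPM in cycling nuclei and at 177, 195 and 212 CPM in astroglia (log2 difference 1.31, SE 0.06, edgeR adjusted p = 1.5e-16). The gate with the next highest mean, CGE interneurons at 217 ± 38.5 CPM (SD, n = 12), lay below the cycling gate in all 12 libraries. Ctcf, which anchors chromatin loops, stood at 150, 168 and 222 CPM against 94.0, 101 and 117 CPM (log2 difference 0.70, SE 0.07). The libraries of neither gene overlapped. Chd7 stood at 393, 527 and 645 CPM against the astroglia values above (log2 difference 0.98, SE 0.06), but with all deposited barcodes the difference was 0.20 (edgeR adjusted p = 0.0073) and it was no longer called, while that of Ezh2 shrank to 0.78 and that of Ctcf to 0.39, both still called. Smarca4, the ATPase paralogue of Smarca2, stood at 131, 169 and 192 CPM against 83.7, 114 and 135 CPM (log2 difference 0.46, SE 0.07). It was higher in cycling nuclei in 12 of 12 libraries, although the ranges overlapped. Dnmt3a and Phf21a were lower. Dnmt3a stood at 133, 174 and 248 CPM against 191, 235 and 275 CPM (log2 difference -0.50, SE 0.08), and Phf21a at 417, 477 and 551 CPM against 547, 629 and 753 CPM (log2 difference -0.49, SE 0.05).

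Ezh2 and Ctcf were among the 12 genes of the list called higher in cycling than in astroglia nuclei. Their promoters are shown, with the core letters of the E2F site in capitals. Promoters of the other genes called higher, Chd7 and Smarca4 among them, are not shown, and their matches were not counted apart. A link between the letters and the level in dividing nuclei was not tested. E2F factors drive many genes of the cell cycle. The letters searched on both strands begin with TT and end with CGC, and the pair between them may be CC (the word TTCCCGC), or CG to give the word TTCGCGC, or GC, in which case the word reads TTGCCGC, or finally GG for TTGGCGC. The windows of 300 bases, 250 before and 50 after the annotated start, are from RefSeq on GRCm38.p6 and are written 5′ to 3′ on the strand of the gene. Ezh2 lies at chr6:47594981-47595280 on the minus strand and has 1 match, and Ctcf at chr8:105636288-105636587 on the plus strand has 2.
Ezh2: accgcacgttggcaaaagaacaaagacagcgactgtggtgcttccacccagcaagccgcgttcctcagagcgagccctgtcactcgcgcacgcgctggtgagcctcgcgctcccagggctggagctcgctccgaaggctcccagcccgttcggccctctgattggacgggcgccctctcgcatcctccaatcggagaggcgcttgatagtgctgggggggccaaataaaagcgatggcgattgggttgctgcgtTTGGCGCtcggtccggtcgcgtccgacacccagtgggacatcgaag
Ctcf: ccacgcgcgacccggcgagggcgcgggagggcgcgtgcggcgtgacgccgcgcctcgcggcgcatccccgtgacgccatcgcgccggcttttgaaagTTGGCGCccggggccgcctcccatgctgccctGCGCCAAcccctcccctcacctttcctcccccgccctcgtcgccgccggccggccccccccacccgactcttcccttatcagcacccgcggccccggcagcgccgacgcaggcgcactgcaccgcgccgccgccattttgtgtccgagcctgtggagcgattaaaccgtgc
At least 1 of these words was present in 9.57% of the 32851 RefSeq windows and in 5 of the 25 genes of the list that were matched by symbol (16.1% of their 31 windows). A match is a description of the letters only.

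The paralogues could be read side by side within each comparison. Arid1a and Arid1b moved together in upper-layer against deep-layer and in excitatory against inhibitory nuclei (log2 differences of -0.23 and -0.36 in the latter), while only Arid1b was called between striatal nuclei and interneurons (0.45, against -0.06 for Arid1a, not called). Smarca2 and Smarca4 were both called higher in excitatory nuclei than in astroglia (1.26 and 0.79), and took opposite signs in cycling against astroglia (-0.30 and 0.46, both called). Between striatal nuclei and interneurons Smarca2 differed by -1.31 and Smarca4, not called, by 0.07. Chd7 was called in 4 of the 5 comparisons and Chd8 in none with TMM scaling. Tcf20 and Rai1, related nuclear proteins that bind nucleosomes, were both called in excitatory against astroglia (0.72 and 0.41), but with total-count scaling the value of Rai1 was -0.02. Tcf20 was also called higher in striatal nuclei (0.52) and in cycling nuclei (0.43), where Rai1 was not called (0.14 and 0.12). These differences between paralogues were not tested as such. Tcf20 was higher in striatal nuclei than in CGE interneurons in all 11 libraries, and it averaged 366 ± 23.9 CPM there (SD, n = 11). Outside the tested comparisons, Ankrd11, a corepressor mutated in KBG syndrome, averaged 817 ± 93.5 CPM in oligodendrocyte lineage nuclei and 273 ± 9.17 CPM in excitatory nuclei (SD, n = 12). Setbp1, which binds the SET protein, averaged 1532 ± 150 CPM in astroglia and 257 ± 73.3 CPM in endothelial nuclei.

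The study examined how MYT1L levels act in neuronal development, and at this age it compared WT with Het animals. For the 36 genes, no Het against WT difference was called over all nuclei, in excitatory nuclei or in inhibitory nuclei by edgeR's quasi-likelihood test, and DESeq2 called 0 of them in each as well. Over all genes, edgeR called 0% of 20434 over all nuclei, 0.0125% of 15952 in excitatory nuclei and 0% of 12011 in inhibitory nuclei, whereas DESeq2 called 74, 91 and 6 genes. At an unadjusted p under 0.05 there were 4 of 36 genes over all nuclei (0 higher and 4 lower), 4 in excitatory nuclei (2 and 2) and 3 in inhibitory nuclei (0 and 3), against 10.7%, 13.1% and 7.63% of all genes. These counts depended on single libraries. In excitatory nuclei there were 2 without Het 1, 2 without Het 3 and 8 without Het 4, in inhibitory nuclei 0 without Het 2 and 5 without WT 7, and over all nuclei 2 without Het 3. The median log2 difference over the 36 genes was 0.01, 0.03 and -0.0045, and over all genes 0.0022, -0.0071 and -0.0026. In simulated data at these library sizes, the excitatory test recovered 86.9% of genes changed by 2-fold and 59.2% of those changed by 1.5-fold. The changed genes were drawn at random from all genes tested and not from the 36. In the other 12 gates 0 of the tested genes of the list were called. All 36 were tested except in Cajal-Retzius and endothelial nuclei (33 each), mural and fibroblast nuclei (30) and microglia (17), and the background was 0.157% of all genes in Cajal-Retzius nuclei, 0.0965% in MGE interneurons, 0.0417% in striatal nuclei and 0% in the other 9 gates. At an unadjusted p under 0.05 these gates held 0 to 3 of the genes each, at most 8.33% of those tested, against 3.14% to 9.88% of all genes. A further 102 chromatin genes of the same roles, which are not on the list, also gave 0 calls in the 3 main comparisons, and 14, 15 and 7 of them had an unadjusted p under 0.05.

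**Figure D4:**
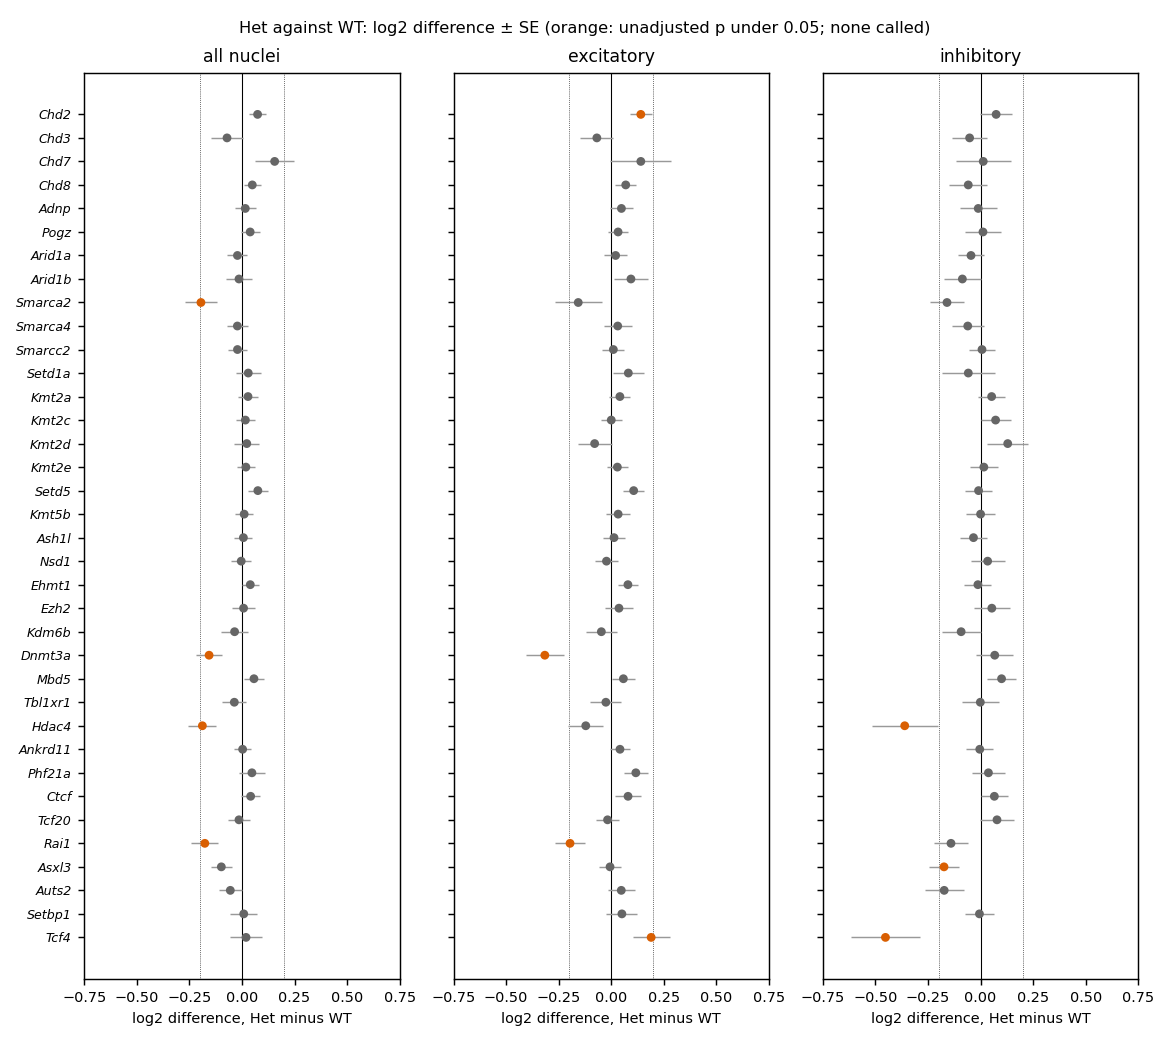
Log2 difference, Het minus WT, of each of the 36 genes over all nuclei, in excitatory and in inhibitory nuclei, with SE bars. Orange points have an unadjusted p under 0.05, dotted lines mark 0.2 in either direction, and 0 of the genes were called.

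The layer make-up of the excitatory gate differed between libraries. Upper-layer nuclei made up 55.2%, 48.4%, 46.1% and 27.5% of the excitatory nuclei in Het 1 to Het 4, against 26.2% to 41.2% in WT (median 34.9%, exact permutation p = 0.0808). Deep-layer nuclei made up 16.2%, 20.8%, 23.0% and 37.9% in Het and 23.7% to 43.3% in WT (median 34.5%, exact permutation p = 0.0828). Het 1 to Het 3 thus lay outside the WT range on both measures, and Het 4 inside it. Each of the 8 genes named below in excitatory nuclei had the same sign in Het minus WT as in upper-layer minus deep-layer nuclei. The share of the other listed genes, or of all genes, with matching signs was not counted. The match is therefore not shown to be particular to these 8. The log2 differences between the layers were 0.09 for Chd2, 0.10 for Setd5, 0.13 for Phf21a, 0.10 for Ehmt1 and 0.57 for Tcf4, and -0.42 for Dnmt3a, -0.16 for Rai1 and -0.22 for Hdac4. Within each layer gate, Het minus WT kept its sign in all 8 genes and none was called. The 8 were picked by their p in the whole excitatory gate, whose nuclei the layer gates share. This agreement in sign is therefore no independent support. In upper-layer and deep-layer nuclei it was 0.10 and 0.17 for Chd2, 0.15 and 0.06 for Setd5, 0.08 and 0.11 for Phf21a, 0.06 and 0.06 for Ehmt1, -0.24 and -0.11 for Rai1, and -0.08 and -0.12 for Hdac4. The libraries of Chd2 overlapped between genotypes in both layers. These gates leave out the nuclei between the layer limits, and the part of layer make-up in the values of the whole excitatory gate was not tested.

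In excitatory nuclei the smallest unadjusted p belonged to Dnmt3a. The WT libraries ran from 100.2 CPM through a median of 111 to 133 CPM, and Het 1 to Het 4 stood at 106, 88.5, 82.4 and 99.6 CPM. All 4 Het values lay below the WT median and 3 below every WT library, with Het 1 inside the WT range. The log2 difference was -0.32 with an SE of 0.09 and an edgeR adjusted p of 0.21, and the exact permutation test of the mean CPM gave p = 0.0141 (two-sided). The difference was of like size in deep-layer nuclei (-0.31) and upper-layer nuclei (-0.22), gates which share these nuclei. In cycling nuclei it was -0.38, where no edgeR adjusted p of the 36 genes was under 0.99979. In inhibitory nuclei it had the other sign, at 0.07 with an SE of 0.09 (edgeR adjusted p = 0.90), where the Het libraries stood at 168, 186, 163 and 158 CPM inside the WT range of 142 to 191 CPM. Over all nuclei it was -0.16, with Het values of 144, 135, 122 and 135 CPM around or below the WT median of 144 CPM (WT 135 to 168 CPM, edgeR adjusted p = 0.39). None of these was called.

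Chd2, a remodeller mutated in childhood epilepsy, was the 1 gene of the list whose excitatory libraries did not overlap between genotypes, against 0.953% of all genes tested there. The WT libraries ran from 170 through 191 to 195 CPM, and the Het libraries stood at 220, 208, 217 and 196 CPM. Het 4 lay just above the highest WT library. The log2 difference was 0.14 with an SE of 0.05 (95% interval 0.04 to 0.24) and an edgeR adjusted p of 0.27, and the exact permutation p was 0.0020, the smallest that 4 against 8 libraries allow. In this and the other exact tests, p is for 1 gene and is not adjusted for the 36. Setd5, a SET-domain protein, showed a similar arrangement, at 212 through 229 to 237 CPM in WT and 239, 258, 256 and 234 CPM in Het. Here Het 4 fell inside the WT range, and the unadjusted edgeR p was above 0.05 (log2 difference 0.11, edgeR adjusted p = 0.39, exact permutation p = 0.0040).

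**Figure D5:**
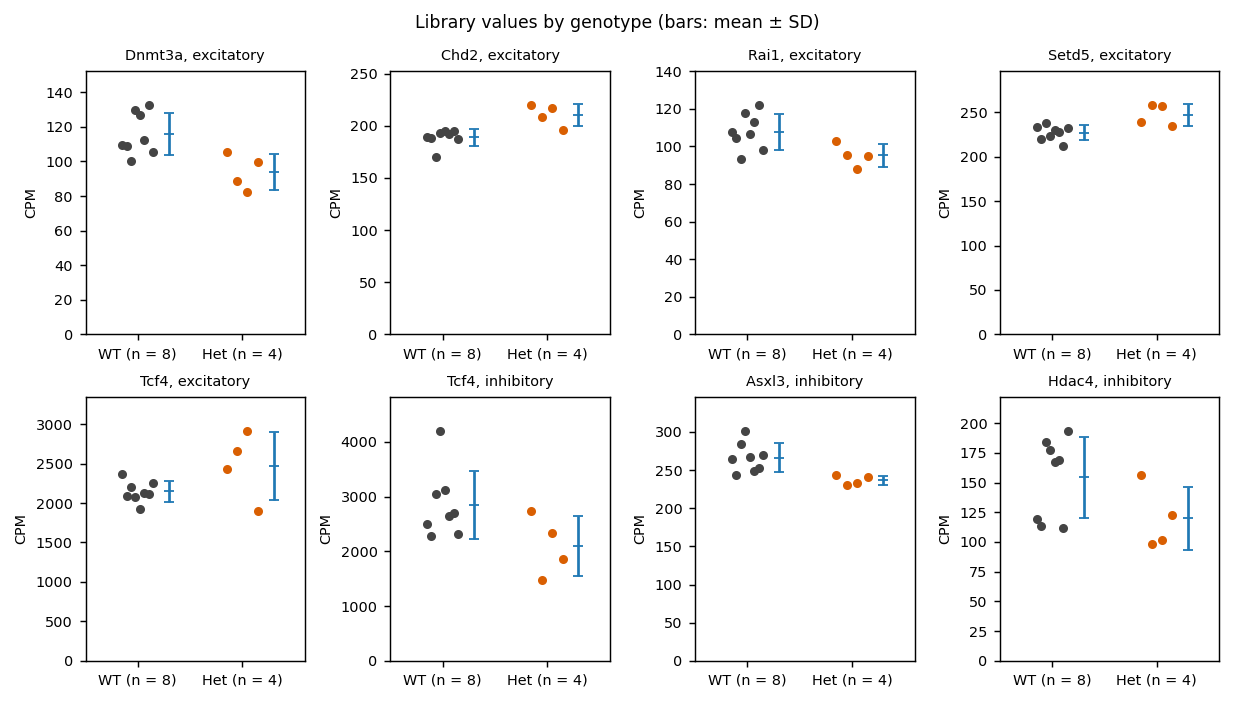
CPM per library of genes named in the genotype comparison (y axis from 0), with the 8 WT libraries in dark grey, the 4 Het libraries in orange and mean ± SD in blue. In excitatory nuclei the 4 Het points of Chd2 lie above the WT points, and in inhibitory nuclei those of Tcf4 spread from 1472 to 2738 CPM within and below the WT points.

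Rai1, the gene of Smith-Magenis syndrome, ran from 93.4 through 107 to 122 CPM in WT excitatory nuclei, and its Het libraries stood at 103, 95.2, 87.9 and 94.9 CPM. The groups overlapped, with every Het value below the WT median (log2 difference -0.20, SE 0.07, edgeR adjusted p = 0.28, exact permutation p = 0.0384). In upper-layer nuclei the difference was -0.24 and over all nuclei -0.18, with Het values of 108, 99.95, 95.5 and 94.9 CPM against 95.8 through 110 to 120 CPM in WT (edgeR adjusted p = 0.36).

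The core letters AAGTT, which the zinc fingers of MYT1L are known to bind, were searched in the promoter windows described above. On either strand they were present in 39.3% of the 32851 windows and in 25.8% of the 31 windows of the matched genes (6 of 25 genes). A match is of letters only.

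The remaining genes named in excitatory nuclei had an unadjusted edgeR p above 0.05, and their groups overlapped. Phf21a ran from 214 through 241 to 250 CPM in WT and stood at 264, 261, 271 and 239 CPM in Het (log2 difference 0.12, edgeR adjusted p = 0.40, exact permutation p = 0.0303). Ehmt1, a writer of H3K9 methylation, ran from 249 through 261 to 274 CPM in WT and stood at 279, 282, 273 and 281 CPM in Het (log2 difference 0.08, edgeR adjusted p = 0.52, exact permutation p = 0.0061). In both genes 3 Het libraries lay above every WT library. Hdac4 ran from 86.5 through 98.9 to 117 CPM and stood at 99.9, 91.3, 89.8 and 89.3 CPM in Het, all inside the WT range (log2 difference -0.12, edgeR adjusted p = 0.56, exact permutation p = 0.222). Without WT 7 the difference of Hdac4 was -0.08.

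Tcf4 took different signs in the main neuron gates. In excitatory nuclei the WT libraries ran from 1922 through 2124 to 2367 CPM, and the Het libraries stood at 2430, 2662, 2909 and 1897 CPM. The first 3 lay above every WT library and Het 4 below all of them (log2 difference 0.19, SE 0.09, edgeR adjusted p = 0.38, exact permutation p = 0.0646). Without Het 4 the difference was 0.30 with an adjusted p of 0.023, which passes both limits of a call, and without Het 3 it was 0.11 with an adjusted p of 0.83. The fit without Het 4 called 476 of all 16301 genes, against 2 of 15952 with all libraries. Het 4 is also the 1 Het female. With sex as a covariate the difference was 0.17 (edgeR adjusted p = 0.43), and with male libraries alone it was 0.31 (edgeR adjusted p = 0.087), neither of them a call. Within the layers, the difference of Tcf4 was 0.08 in upper-layer nuclei (SE 0.08, edgeR adjusted p = 0.84) and 0.29 in deep-layer nuclei (SE 0.10, edgeR adjusted p = 0.33), where WT ran from 1542 through 1654 to 1874 CPM and Het 1 to Het 4 stood at 1856, 2111, 2557 and 1544 CPM. In inhibitory nuclei WT ran from 2289 through 2674 to 4194 CPM and Het stood at 2738, 1472, 2332 and 1861 CPM. Het 2 and Het 4 lay below every WT library, and WT 4 was far above the rest (log2 difference -0.45, SE 0.16, edgeR adjusted p = 0.55, exact permutation p = 0.0667). Without the filter on low counts the inhibitory difference was -0.43 with an adjusted p of 0.0010, a call. That fit called 246 of all 33705 genes, against 0 of 12011 with the filter. Within subclasses the values were -0.29 in MGE interneurons (SE 0.09, edgeR adjusted p = 0.23), -0.0073 in CGE interneurons and 0.12 in striatal nuclei. In MGE interneurons WT ran from 3753 through 4112 to 4741 CPM, and Het 1 to Het 4 stood at 4189, 2797, 3425 and 3460 CPM, 3 of them below every WT library.

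The make-up of the inhibitory gate moved alongside. Striatal nuclei, in which Tcf4, Hdac4, Asxl3 and Smarca2 were all lower than in interneurons, made up 1.45% to 27.3% of inhibitory nuclei in WT libraries (median 17.3%, with WT 4 the lowest) and 22.8%, 30.0%, 21.7% and 27.4% in Het 1 to Het 4 (exact permutation p = 0.0707). Its part in the inhibitory differences was not tested. The same 4 genes had the smallest p in inhibitory nuclei. Asxl3 was the 1 gene of the list without overlap there, against 0.633% of all genes, although by a margin of under 1 CPM between Het 1 and the lowest WT library. WT ran from 243 through 266 to 301 CPM and Het stood at 243, 230, 234 and 241 CPM (log2 difference -0.17, SE 0.07, edgeR adjusted p = 0.61, exact permutation p = 0.0121). In MGE interneurons the difference of Asxl3 was -0.0097. Hdac4 ran from 111 through 168 to 193 CPM in WT and stood at 156, 98.6, 101 and 123 CPM in Het, where Het 2 and Het 3 lay below all WT libraries (log2 difference -0.36, SE 0.16, edgeR adjusted p = 0.61, exact permutation p = 0.0848). In MGE interneurons it was -0.23 and in striatal nuclei 0.08. Smarca2 ran from 145 through 174 to 191 CPM and stood at 159, 138, 174 and 149 CPM, with Het 2 alone below the WT range (log2 difference -0.16, edgeR adjusted p = 0.66, exact permutation p = 0.0788).

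Over all nuclei the smallest p belonged to Hdac4, at 108 through 118 to 130 CPM in WT and 118, 102, 99.4 and 105 CPM in Het. Of these, 3 lay below every WT library and Het 1 lay near the WT median (log2 difference -0.19, SE 0.07, edgeR adjusted p = 0.35, exact permutation p = 0.0404). Smarca2 ran from 220 through 247 to 285 CPM in WT and stood at 210, 201, 223 and 259 CPM in Het, with Het 4 above the WT median (log2 difference -0.20, edgeR adjusted p = 0.40, exact permutation p = 0.109). Both genes were higher in deep-layer than in upper-layer nuclei with TMM scaling, and deep-layer nuclei made up 7.18%, 8.57%, 9.67% and 14.0% of all kept nuclei in Het 1 to Het 4 against 9.73% to 17.3% in WT (median 13.4%, exact permutation p = 0.0303). The part of this share in the differences over all nuclei was not tested. For the 36 genes over all nuclei, the log2 differences ran from -0.20 to 0.16, and 0 genes had libraries that did not overlap, against 0.886% of all genes.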

How the data were processed

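The deposited files were 10x-style matrices of 1 library each, whose values are expected counts of UMIs per gene and nucleus: the authors aligned reads to mm10 with the ScaleRna pipeline, and called nuclei, and 6.58% to 6.88% of the entries are not whole. Seurat 4.3.0 is named in the submitters' processing notes. Here the estimated counts were summed per library and gate and rounded to whole numbers, while the tests had been planned for plain counts. Nuclei within the filter stated by the study were kept (UMIs from 800 to 6000, genes from 300 to 3000, a mitochondrial share of at most 1% and log genes over log UMIs of at least 0.9). Gates were set from marker lists, and their scoring rule was set after marker counts had been seen. The 14 lists were named as in the text. A nucleus needed at least 3 times the UMIs of any other class that reached its own minimum, and inhibitory subclasses 3 times those of each other subclass. Layer gates used a ratio of 2 between their lists, each set against its mean over excitatory nuclei. Cycling nuclei were taken from any class without such a rule. Nuclei with markers of several classes and no such lead (7695) entered no class, and 20064 had none. Both stayed in the sums over all nuclei. The study removed multiplets with DoubletFinder before this filter. That step was not repeated here, no doublet caller was run, and whether the deposited matrices precede it is not stated. Names were rebuilt from markers and may differ from those of the study.

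Tests were edgeR 4.0.16 quasi-likelihood fits in R 4.3.3 with TMM, filterByExpr and Benjamini-Hochberg adjustment over all genes tested, called at an adjusted p under 0.05 and a log2 difference of 0.2 or more. DESeq2 1.42.0 was an alternative. Gate comparisons used the library as a block over WT and Het together. A gate needed at least 10 nuclei in a library, and microglia of WT 6 and striatal nuclei of WT 4 fell short. Exact permutation tests were two-sided over 495 splits, with a smallest p of 0.0020. The fits were also run on simulated data, with means and dispersions taken from these counts, where 4% of the excitatory genotype calls fell on unchanged genes.

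Genes named with values were the 8, 4 and 4 of the list with the smallest unadjusted p in excitatory, inhibitory and all nuclei, the 6 with the largest difference in each gate comparison, and 4 paralogue pairs. Ankrd11, Setbp1, Mbd5, the gate values of Chd2, the genes printed per length, the striatal level of Tcf20 and the subclass values were added after their values were seen. The members and lists were chosen with earlier results of these data known. Gene positions and lengths were from GENCODE vM21 (mm10), matched by gene identifier. Each library is 1 animal, all were made in 1 plate batch, and library and reverse transcription well cannot be told apart.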

Additional observations from a re-analysis of the deposited data

Results flagged for a closer look

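Of 32 groups of library values checked for a sample far from the others, 3 had one, where chance gives about 1 in 20. In WT excitatory nuclei, WT 3 had 170 CPM of Chd2, and the other 7 WT libraries lay between 187 and 195 CPM. In WT inhibitory nuclei, WT 4 had 4194 CPM of Tcf4 against 2289 to 3131 CPM in the others, and it also had the fewest striatal nuclei among its inhibitory nuclei (1.45%). Over all nuclei, WT 7 had 168 CPM of Dnmt3a against 135 to 149 CPM in the other WT libraries.

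The within-library ratio of Tcf4 between neuron gates was computed because its opposite signs in these gates had already been seen, so the p-values below restate that observation and are no independent test of it. The log2 ratio of excitatory to inhibitory CPM ran from -1.01 through -0.33 to -0.04 in WT and was -0.17, 0.86, 0.32 and 0.03 in Het. The means differed by 0.64 (exact permutation p = 0.0141), with 3 of 4 Het libraries above every WT library, and by 0.45 without Het 2 (exact permutation p = 0.0788). Against interneurons alone, which leaves out striatal nuclei, the difference was 0.39 (exact permutation p = 0.0202). It was 0.25 without Het 2 (exact permutation p = 0.0788) and 0.34 without Het 3 (exact permutation p = 0.0606).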

How the results depend on the processing

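The 46 log2 differences checked were those named for the smallest p or the largest difference, a choice that favours a stable sign. They leave out the 6 genes whose sign turned with total-count scaling in excitatory against astroglia. Of 906 alternative values of the 46, 903 kept their direction and their side of the limits, 0 turned sign, 2 became calls (Tcf4 in excitatory nuclei without Het 4, and in inhibitory nuclei without the filter on low counts) and 1 call was lost (Chd7 in cycling against astroglia with all deposited barcodes, 0.20). Sizes moved by over 1.5 times in some that kept their side. A replicate block of sex and replicate number kept only libraries with a partner, so WT 4, WT 5, WT 7 and WT 8 were left out. The set of samples thus changed along with the model. With this block, Het minus WT in excitatory nuclei was -0.21 for Dnmt3a, 0.04 for Ehmt1 and -0.05 for Hdac4, and over all nuclei -0.10 for Dnmt3a. With male libraries alone it was 0.31 for Tcf4 and 0.18 for Phf21a in excitatory nuclei, and with the stricter gate -0.11 for Asxl3 in inhibitory nuclei. Leaving out 1 library gave 0.11 for Tcf4 (without Het 3) and -0.08 for Hdac4 (without WT 7) in excitatory nuclei. In excitatory against astroglia, total-count scaling gave 0.84 for Smarca2, 0.54 for Auts2 and -1.25 for Tbl1xr1, and in cycling against astroglia all deposited barcodes gave 0.78 for Ezh2 and 0.39 for Ctcf. The number of the 36 genes called between Het and WT ranged from 0 to 1 in excitatory nuclei when 1 library was left out, and was 1 in inhibitory nuclei without the filter. Total-count scaling, chosen after seeing the data, gave 6 higher and 23 lower in excitatory against astroglia, and 8 higher and 2 lower in upper-layer against deep-layer. The other 247 of 253 counts of calls were within 1.5 times the count reported or stayed at 0. The cause was not tested. Counts over all genes in excitatory nuclei moved far more, from 2 calls to 476 without Het 4, 249 with male libraries alone and 91 with DESeq2. In inhibitory nuclei they moved from 0 to 246 without the filter on low counts. Sex and replicate number are shared by 4 pairs of libraries. With them as a replicate block, 0 of the 36 genes were called in each of the 3 main genotype comparisons, and 1 over all nuclei, 3 in excitatory and 1 in inhibitory nuclei had an unadjusted p under 0.05. DESeq2 gave 6, 7 and 3, and male libraries alone 2, 5 and 2. The correlations of paired deviations ran from -0.18 to 0.28, and 4 of 12 correlated best with their own number. These 12 values are 4 pairs in 3 gates that share nuclei. Het 4 correlated best with WT 6, its own number, in all 3 gates (0.28, 0.22 and 0.20), and Het 2 with WT 2 in inhibitory nuclei alone. Whether the numbers pair the animals cannot be told from these values. With 4 Het libraries, the excitatory test recovered 59.2% of simulated 1.5-fold changes in genes drawn from all genes tested. Smaller changes, and changes in the 36 genes alone, were not simulated. The median SE of the log2 difference in excitatory nuclei was 0.058 over the 36 genes and 0.124 over all genes.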
